A study of Rattus norvegicus with 18 samples.

Results

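Voltage-gated sodium channel genes were followed across rat dorsal root ganglia, the clusters of sensory nerve cell bodies beside the spinal cord. The genes were taken by symbol: Scn1a, Scn3a, Scn7a, Scn8a, Scn9a, Scn10a and Scn11a, which encode pore-forming alpha subunits, and Scn2b and Scn4b, which encode beta subunits. All 9 were found among the 25678 genes of the deposited count table, and all 9 were among the 17043 genes with enough reads to be tested.

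Messenger RNA was sequenced in 18 libraries, 3 in each of 6 groups. The labels combine a state (Ctrl, Sham or NPP) with a treatment: Ctrl rats whose treatment is also labelled Ctrl (Ctrl), Ctrl rats given solvent (Ctrl_solvent), Sham rats given solvent (Sham_solvent) or herb (Sham_herb), and NPP rats given solvent (NPP_solvent) or herb (NPP_herb). NPP is not spelled out in the labels. The study's design text speaks of a rat model of neuropathic pain, that is, pain from damage to the nervous system, and of Shentong Zhuyu decoction, a remedy of several herbs. Strain, age, sex, how the model was made, dose, duration and any pooling of animals were not given in the sources used here. Since no label ties a replicate to an individual animal, the p-values cover the variation among these libraries alone, and that variation may be technical.

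Voltage-gated sodium channels open when the membrane depolarizes and let sodium ions into the cell, which starts and carries the action potential. Scn9a (Nav1.7) amplifies small depolarizations near threshold in pain-sensing neurons, Scn10a (Nav1.8) carries most of the current of their action potential, and Scn11a (Nav1.9) passes a slow persistent current that sets their resting excitability. Scn1a (Nav1.1) and Scn8a (Nav1.6) serve mainly fast-conducting myelinated neurons, Scn3a (Nav1.3) is best known from embryonic and injured neurons, Scn7a (Nax) is a sodium-sensing relative found in both neurons and glia, and the beta subunits anchor the alpha subunits and tune their gating.

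In the count table, on build mRatBN7.2, the alpha subunit genes Scn1a, Scn3a, Scn7a and Scn9a lie on chromosome 3, and Scn10a and Scn11a lie together with the beta subunit genes Scn2b and Scn4b on chromosome 8. Scn8a is on chromosome 7. The promoters of the 2 pairs of genes that varied most alike over the 18 libraries are shown, to let their sequences be compared: Scn10a and Scn11a, and Scn3a and Scn9a. Each is the 250 bases before the RefSeq start of the gene on build GRCr8, a later build than that of the counts, and all 4 are on the minus strand. Positions are chr8:128340299-128340548 for Scn10a, chr8:128444719-128444968 for Scn11a, chr3:70666199-70666448 for Scn3a and chr3:71701378-71701627 for Scn9a. Capitals mark matches to the motifs searched on both strands, which were AP-1 (TGANTCA), Runx (TGTGGT), the GC box (GGGCGG), the TATA box (TATAAA) and a CRE core (TGACG).
Scn10a: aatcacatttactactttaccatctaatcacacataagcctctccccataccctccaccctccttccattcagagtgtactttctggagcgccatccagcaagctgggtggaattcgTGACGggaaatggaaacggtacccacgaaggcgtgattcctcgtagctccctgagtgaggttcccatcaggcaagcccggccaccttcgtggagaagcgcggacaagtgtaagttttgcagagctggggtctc
Scn11a: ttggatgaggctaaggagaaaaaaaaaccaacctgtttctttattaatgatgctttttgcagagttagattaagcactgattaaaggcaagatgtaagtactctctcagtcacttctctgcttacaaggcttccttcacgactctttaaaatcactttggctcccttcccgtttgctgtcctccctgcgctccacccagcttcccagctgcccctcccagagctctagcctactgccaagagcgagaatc
Scn3a: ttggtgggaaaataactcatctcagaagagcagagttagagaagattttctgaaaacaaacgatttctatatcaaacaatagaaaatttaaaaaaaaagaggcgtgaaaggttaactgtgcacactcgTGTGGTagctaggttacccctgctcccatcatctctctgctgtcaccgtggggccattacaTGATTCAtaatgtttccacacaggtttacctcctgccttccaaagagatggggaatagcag
Scn9a: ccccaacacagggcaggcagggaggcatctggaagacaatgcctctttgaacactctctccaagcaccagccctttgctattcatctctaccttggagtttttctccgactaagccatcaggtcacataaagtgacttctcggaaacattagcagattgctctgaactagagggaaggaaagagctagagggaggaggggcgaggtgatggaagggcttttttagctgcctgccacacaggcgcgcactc

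RefSeq's table held a promoter for 8 of the 9 genes. The Scn10a promoter held 1 CRE core, which 19% of the 27456 full-length promoters in the table hold, and the Scn11a and Scn9a promoters held none of the 5 motifs. The Scn3a promoter held both an AP-1 match, as 6.36% of all promoters do, and a Runx match, as 14.1% do. A Runx match also lay before Scn2b, and GC boxes (32.4% of all promoters) lay before Scn7a and Scn8a, while no member held a TATA box (13.1%). Base composition ranged widely. The Scn8a promoter was 86% G and C with 53 CpG sites and that of Scn4b 71.6% with 21, against a median of 52% and 6 sites over all promoters. The nociceptor gene promoters were closer to that median, at 53.2% with 11 CpG sites for Scn10a, 52.4% with 5 for Scn9a and 46.4% with 4 for Scn11a. Scn3a had 41.6% with 4 and Scn2b 38.8% with 1. These matches describe the letters of the window only.

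Sequencing depth was 18.2 to 50.3 M reads per library, and every library carried the markers of dorsal root ganglion. All 10 pan-neuronal markers were read in every library (Tubb3, a neuronal tubulin, at 2750 to 3920 CPM, counts scaled to library size), as were the nociceptor, satellite glia and Schwann cell markers. Skeletal muscle markers summed to 8.44 to 25.4 CPM and the 3 of 5 spinal cord markers with enough reads to be tested to 1.18 to 15.4 CPM. Atf3, which neurons switch on after axon damage, was low in NPP_solvent replicate 3 (14.0 CPM) and NPP_herb replicate 3 (10.8 CPM), against 39.4 to 107 CPM in the other NPP libraries, and high in Ctrl_solvent replicate 3 (94.6 CPM) and Sham_herb replicate 3 (54.5 CPM). Atf3 thus went against the labelled state in these 4 libraries. Less markedly, it was also raised in Sham_solvent replicate 3, at 29.4 CPM against 13.0 and 14.4 CPM in replicates 1 and 2. Whether all these libraries are labelled as they were treated, or differ in the side or level of the ganglion, was not tested. All groups are named by their labels, and every contrast carries this doubt, both between states and between treatments within a state. Reads of the Y-linked gene Eif2s3y numbered 2180 to 6568 in 16 libraries but 1 and 0 in Ctrl replicates 2 and 3, so in comparisons with Ctrl sex and solvent cannot be told apart for those libraries.

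Measured per length of transcript, the 9 genes spanned a wide range of levels. Median FPKM (fragments scaled to transcript length and library size) over the 18 libraries was 59.7 for Scn4b, 55.9 for Scn7a, 35.0 for Scn11a, 27.2 for Scn10a, 19.8 for Scn9a, 11.1 for Scn2b, 10.6 for Scn1a, 10.1 for Scn8a and 0.24 for Scn3a. Among the nociceptor channels, Scn11a was above Scn10a in 18 of 18 libraries, and Scn10a above Scn9a in 17 of 18. Scn7a was above Scn11a, and Scn9a above Scn2b, in 18 of 18. The remaining pairs of neighbours changed places between libraries, since Scn4b was above Scn7a in 10 of 18, Scn2b above Scn1a in 12 and Scn1a above Scn8a in 13. Scn3a stood apart as the lowest, with 45 to 205 reads per library, which limits the precision of its values. Over the 18 libraries the coefficient of variation of CPM was 29.0% for Scn3a, 22.3% for Scn7a and 21.7% for Scn10a, between 12.5% and 14.4% for Scn1a, Scn4b, Scn8a, Scn9a and Scn11a, and 8.58% for Scn2b, the steadiest. Of the other sodium channel genes, the beta subunit gene Scn3b had a median FPKM of 14.3, and the alpha subunit genes Scn2a, known from brain, and Scn4a, known from muscle, were at 0.425 and 0.20.

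As shares of the summed FPKM of the 7 alpha subunit genes, Scn7a held 36.4% ± 5.22 (SD, n = 18 libraries), Scn11a 21.7% ± 2.35, Scn10a 17.0% ± 2.80, Scn9a 11.9% ± 1.12, Scn1a 6.56% ± 0.788, Scn8a 6.36% ± 0.851 and Scn3a 0.154% ± 0.0356. The sum itself ran from 128.9 FPKM in Sham_solvent replicate 1 to 201.2 in NPP_solvent replicate 3. The Scn7a share had the widest range in percentage points, from 26.5% in Ctrl replicate 3 to 44.8% in NPP_herb replicate 1. Scn10a held 18.5% to 23.7% in the 3 Ctrl libraries and 14.9% to 18.1% in the 3 Ctrl_solvent libraries, ranges that did not meet. Its shares in the other 4 groups lay between 13.7% and 20.3%. Such gaps were not particular to Scn10a. For example, Scn9a was lower in Ctrl (10.5% to 11.4%) than in Ctrl_solvent (11.8% to 12.2%). Between NPP_solvent and Sham_solvent, Scn1a held 5.86% to 6.41% against 6.62% to 8.20%, and Scn8a 5.26% to 6.24% against 6.39% to 7.10%. Scn3a held 0.193% to 0.219% in NPP_herb and 0.117% to 0.184% in NPP_solvent. How often other genes' shares part like this was not tested. Because the shares of a library add up to 100%, a gene's share also moves when the other genes do. In this bulk tissue, fewer cells of a type and less RNA per cell cannot be told apart.

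**Figure D1:**
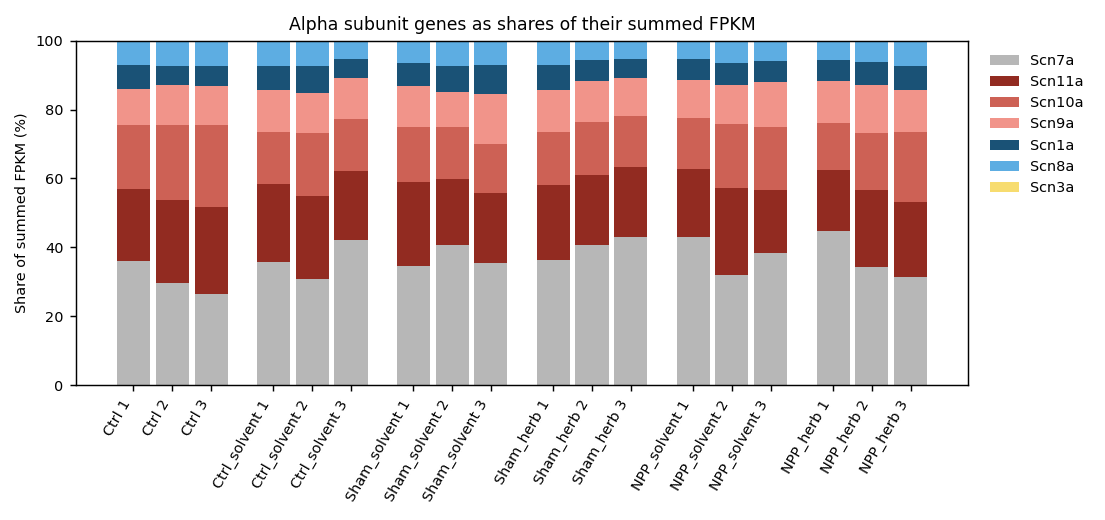
Shares of the 7 alpha subunit genes (percent of their summed FPKM, y axis) in each of the 18 libraries (x axis, bars by group and replicate). Scn7a is the largest segment in every bar, at 26.5% to 44.8%, Scn10a reaches 23.7% in Ctrl, and Scn3a, at 0.154% on average, is barely visible.

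No sodium channel gene passed the test in any comparison. With edgeR's quasi-likelihood test and Benjamini-Hochberg adjustment over all 17043 genes, 0 of the 9 genes had an adjusted p under 0.05 in each of the 11 comparisons, and the share of all genes called was also 0 in each. At an unadjusted p under 0.05 the number of members was 0, 1 or 3, as given for each comparison with the share of all genes at that threshold. DESeq2, run as an alternative, also called 0 of the 9 in every comparison. The differences given below are therefore measured values with their errors, none of which passed after adjustment.

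The comparison of NPP_solvent with Sham_solvent asks how the NPP state differs from the Sham state when both groups received solvent. Scn10a had 280.1, 311 and 399 CPM in NPP_solvent replicates 1, 2 and 3 and 237, 292 and 205 CPM in those of Sham_solvent. NPP_solvent replicate 3 was the highest, and the ranges overlapped because Sham_solvent replicate 2 was above NPP_solvent replicate 1. The log2 fold change was 0.43 ± 0.19 (SE, 95% interval 0.03 to 0.83), with an unadjusted p of 0.0380 and an adjusted p of 0.755 in edgeR. Scn10a was the only one of the 9 with an unadjusted p under 0.05, against 5.67% of all genes. Without NPP_solvent replicate 3, the library with low Atf3, the Scn10a fold change was 0.27. It was 0.31 without Sham_solvent replicate 3, the lowest library and the highest of its group in Atf3. Some other leave-outs raised it, to 0.58 without Sham_solvent replicate 2 and 0.54 without NPP_solvent replicate 1.

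Scn11a had 276, 316 and 296 CPM in the 3 NPP_solvent libraries and 268, 275 and 219 CPM in the 3 Sham_solvent libraries. It was the only member whose groups did not overlap, with NPP_solvent higher, as held for 4.44% of all genes, though the gap between the nearest libraries was narrow. Its log2 fold change was 0.22 ± 0.13 (adjusted p = 0.755, edgeR). The value was 0.12 without Sham_solvent replicate 3, the lowest library, and 0.28 without Sham_solvent replicate 2. Scn9a had 210.1, 195 and 286 CPM against 178, 195 and 217 CPM, a log2 fold change of 0.23 ± 0.13 (adjusted p = 0.755, edgeR). That fold change came to 0.04 without NPP_solvent replicate 3 and to 0.34 without NPP_solvent replicate 2.

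Of the channels of myelinated neurons, Scn1a had 102, 99.7 and 124 CPM in NPP_solvent and 91.2, 137 and 110.4 CPM in Sham_solvent, a log2 fold change of -0.06 ± 0.15. Scn8a had 120, 127 and 149 CPM against 115, 165 and 123 CPM, a log2 fold change of -0.03 ± 0.17. Both sets of libraries overlapped fully, and Sham_solvent replicate 2, the deepest library, was the highest of the 6 for each gene. Without that library both folds were above 0, at 0.11 for Scn1a and 0.15 for Scn8a. Scn4b, whose beta subunit supports resurgent current in such neurons, had 318, 313 and 349.7 CPM against 239, 364 and 346 CPM, a log2 fold change of 0.05 ± 0.16. Its sign depended on the libraries and on the covariates, being -0.125 without Sham_solvent replicate 1 and 0.16 without Sham_solvent replicate 2.

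Scn3a, the gene associated with injury, had 3.74, 2.71 and 5.57 CPM in NPP_solvent and 3.09, 3.01 and 2.77 CPM in Sham_solvent. The 3 Sham_solvent libraries were close together, and NPP_solvent replicate 2 was below all of them. Its log2 fold change of 0.44 ± 0.27 (95% interval -0.12 to 1.00) became 0.125 without NPP_solvent replicate 3 and 0.66 without NPP_solvent replicate 2. Scn7a had 579, 383 and 597 CPM against 369, 560 and 368 CPM, a log2 fold change of 0.27 ± 0.21, and each group held at least 1 library in the range of the other. Single libraries moved it to 0.50 without Sham_solvent replicate 2, 0.44 without NPP_solvent replicate 2 and 0.15 without NPP_solvent replicate 3, and it was 0.16 without replicate 1 or 3 of Sham_solvent. Scn2b, which tethers alpha subunits at the membrane, was at 68.3, 55.0 and 63.0 CPM against 61.8, 50.2 and 52.1 CPM, a log2 fold change of 0.18 ± 0.11.

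As a group, 7 of the 9 genes had a positive fold change between NPP_solvent and Sham_solvent, with a median of 0.22, against a median of 0.01 and 51.3% positive over all genes. The number was 7 with RLE scaling and with DESeq2, 8 from FPKM, where Scn8a turned positive, and 6 with the library's gene length slope, described further on, as a covariate. The count of members with an unadjusted p under 0.05 was 0 without NPP_solvent replicate 3 or Sham_solvent replicate 3 and 5 without NPP_solvent replicate 2, so single libraries set it. Averaged over both treatments, NPP against Sham gave 0 members at that threshold (2.53% of all genes), with log2 fold changes of 0.31 ± 0.19 for Scn3a and 0.22 ± 0.13 for Scn10a, which were 0.11 and 0.03 without replicate 3 of both NPP groups. That leave-out, and the one of the 4 replicate 3 libraries with Atf3 most apart from their groups, were chosen after seeing the data. Both kept Sham_solvent replicate 3, where Atf3 was also raised.

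**Figure D2:**
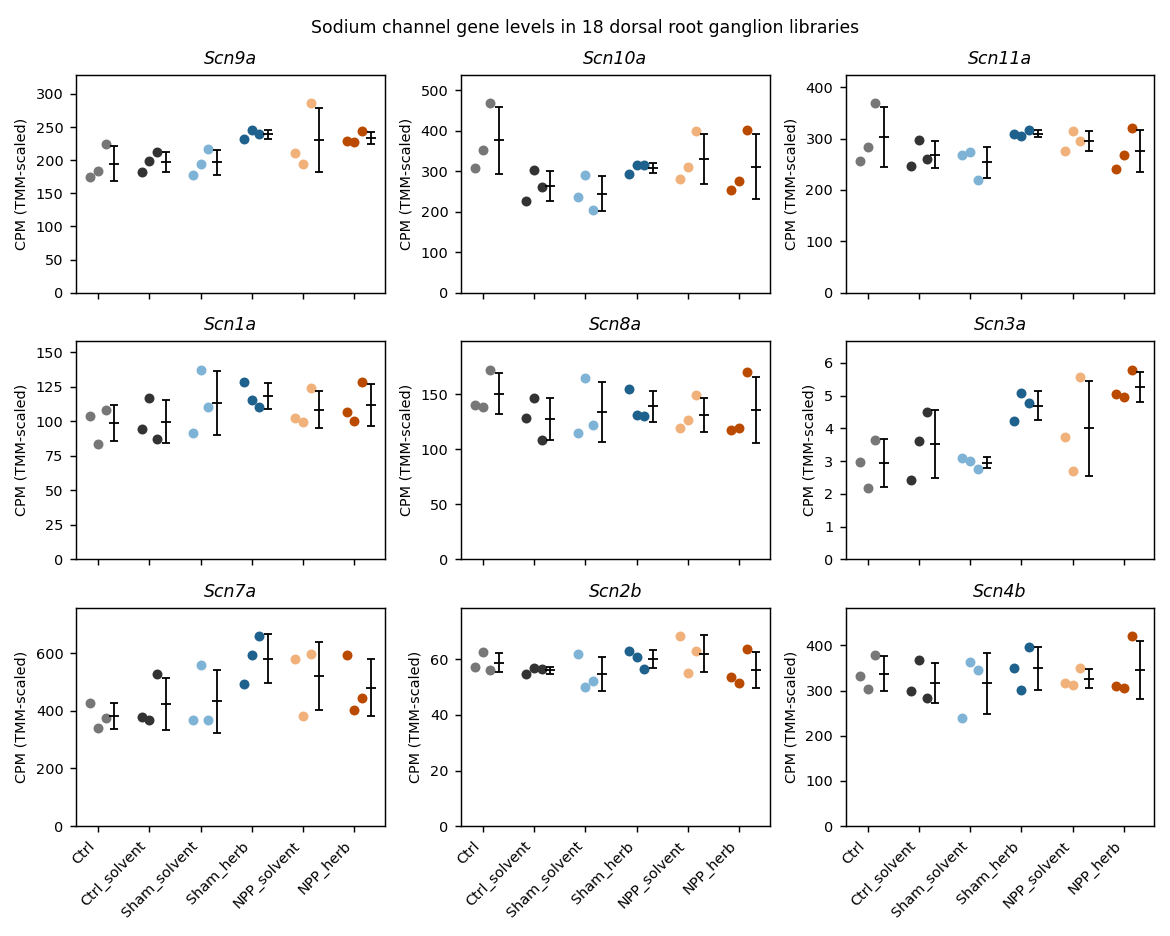
Levels of the 9 genes (CPM after TMM scaling, y axes from 0) in the 18 libraries, by group. Dots are libraries in the order of replicates 1 to 3, and bars give the mean ± SD of the 3. The Scn10a mean is highest in Ctrl, whose libraries are at 308 to 469 CPM, the 3 Sham_herb libraries lie close together for Scn9a, Scn10a and Scn11a, and replicate 3 is the highest of its group in both NPP groups for Scn8a, Scn9a and Scn10a.

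The comparison of NPP_herb with NPP_solvent asks how herb differs from solvent within the NPP state. All 9 genes had 95% intervals that included 0, and none had an unadjusted p under 0.05, against 1.87% of all genes. The interval was widest for Scn3a, at -0.16 to 0.95 on the log2 scale, and ran from -0.56 to 0.33 for Scn7a, from -0.25 to 0.29 for Scn9a and from -0.37 to 0.09 for Scn2b. The count at that threshold was 1 without replicate 3 of either group. Signs were mixed, with 5 of the 9 positive and a median of 0.02, next to -0.01 for all genes.

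The largest value in that comparison was that of Scn3a, which had 5.05, 4.96 and 5.79 CPM in NPP_herb and 3.74, 2.71 and 5.57 CPM in NPP_solvent. The NPP_herb libraries were close together, and NPP_solvent replicate 3 lay within their range. The log2 fold change was 0.39 ± 0.26 (95% interval -0.16 to 0.95), 0.18 without NPP_solvent replicate 2 and 0.71 without NPP_solvent replicate 3. Scn2b and Scn11a had negative values, -0.14 ± 0.11 and -0.10 ± 0.13. Scn11a had 240, 268 and 320.3 CPM in NPP_herb, so that NPP_herb replicate 3 was above and the other 2 libraries were below all 3 NPP_solvent libraries. Scn10a, at 254, 276 and 403 CPM in NPP_herb, had the same arrangement in both NPP groups, with replicate 3 well above the others. Replicate 3 was the highest library of its group for 8 of the 9 genes in NPP_herb and for 7 of the 9 in NPP_solvent, and both are the libraries with low Atf3. Ctrl replicate 3 was likewise the highest for 7 of the 9, although Atf3 was alike in the 3 Ctrl libraries (9.53 to 9.69 CPM), and replicate 2 of Ctrl_solvent and of Sham_solvent was the highest for 6. In the libraries with high Atf3, Sham_herb replicate 3 was the highest for 4 of the 9 and Ctrl_solvent replicate 3 for 3. The same count over all genes, or over genes of like length, was not made. Whether nerve injury or the gene length slope plays a part in that pattern was not tested.

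Sham_herb against Sham_solvent asks how herb differs from solvent in the Sham state, and here all 9 genes had higher fitted levels with herb. Scn9a had 232, 245 and 239 CPM in Sham_herb and 178, 195 and 217 CPM in Sham_solvent. All 3 Sham_herb libraries were above all 3 Sham_solvent libraries, and the log2 fold change was 0.28 ± 0.13 (unadjusted p = 0.0441, adjusted p = 0.491, edgeR). Scn11a had 309, 305 and 317 CPM against 268, 275 and 219 CPM, also without overlap, a log2 fold change of 0.29 ± 0.13 (unadjusted p = 0.0469, adjusted p = 0.491, edgeR). Scn10a had 293, 315 and 316 CPM against 237, 292 and 205 CPM, with only a narrow gap between Sham_herb replicate 1 and Sham_solvent replicate 2, and a log2 fold change of 0.33 ± 0.19.

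Scn3a was at 4.22, 5.08 and 4.78 CPM in Sham_herb against 3.09, 3.01 and 2.77 CPM in Sham_solvent. The 2 groups did not overlap and each was tight. Its log2 fold change was 0.67 ± 0.27 (95% interval 0.11 to 1.23, unadjusted p = 0.0224, adjusted p = 0.491, edgeR), the largest of the 9 in this comparison. Scn7a had 492, 593 and 658 CPM against 369, 560 and 368 CPM, where Sham_solvent replicate 2 lay inside the Sham_herb range, and a log2 fold change of 0.43 ± 0.21.

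Between the Sham groups, 3 of the 9 genes had an unadjusted p under 0.05 (9.89% of all genes), and 4 did not overlap with Sham_herb higher (8.52% of all genes). All 9 fold changes were positive with TMM, RLE and DESeq2 scaling and from FPKM, with a median of 0.28 against 0.01 for all genes. With the gene length slope as a covariate 6 were positive and none had an unadjusted p under 0.05. The count of members at that threshold was 0 without Sham_herb replicate 2 or 3, 1 without Sham_solvent replicate 3, 2 without replicate 1 of either group and 4 without Sham_solvent replicate 2. Averaged over both arms, herb against solvent gave 1 of the 9 at that threshold (5.13% of all genes), which was Scn3a, with a log2 fold change of 0.53 ± 0.19 (unadjusted p = 0.0114, adjusted p = 0.782, edgeR). Scn9a was at 0.15 ± 0.09 in that average.

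The difference between the herb effects of the 2 arms was tested as an interaction. All 9 values were negative, that is, the herb difference was more positive in Sham than in NPP, with a median of -0.27, against -0.02 and 47.7% positive over all genes. With RLE scaling or DESeq2, 2 of the 9 were positive, and 4 were with the length slope as a covariate. None had an unadjusted p under 0.05 (3.40% of all genes). The values were -0.39 ± 0.19 for Scn11a (unadjusted p = 0.0574, adjusted p = 0.920, edgeR), -0.54 ± 0.30 for Scn7a, -0.42 ± 0.27 for Scn10a and -0.28 ± 0.15 for Scn2b. The count at that threshold was 2 without replicate 2 of Sham_solvent or of NPP_solvent, 1 without Sham_solvent replicate 1, NPP_solvent replicate 1 or NPP_herb replicate 1, and 3 without NPP_herb replicate 3. Without that last library the Scn11a and Scn10a values were -0.51 and -0.65. NPP_herb against Sham_herb, the remaining side of this square, gave 0 of the 9 (1.40% of all genes), with Scn7a, at 593, 403 and 445 CPM in NPP_herb, at -0.28 ± 0.21.

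**Figure D3:**
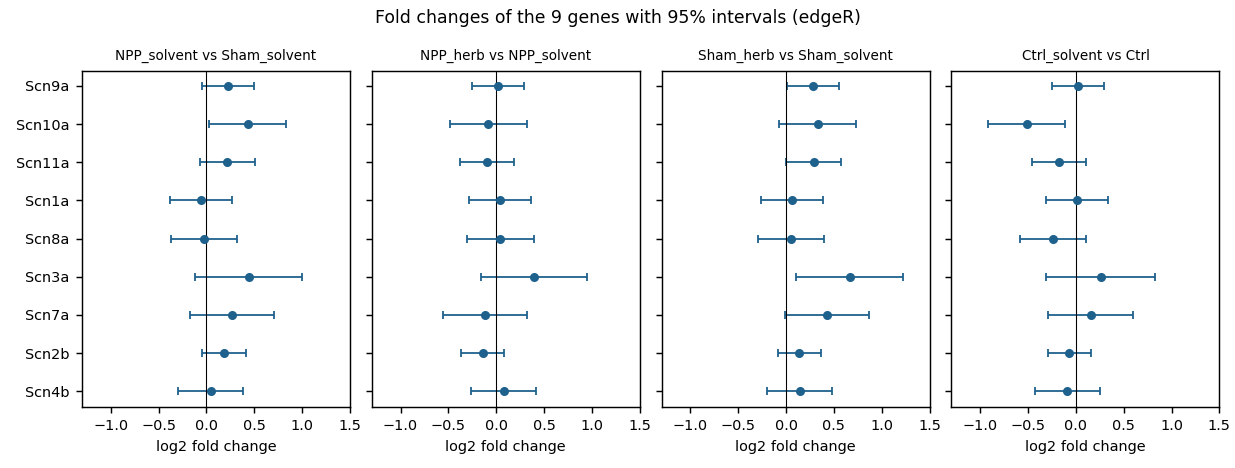
Log2 fold changes of the 9 genes (x axis) in 4 comparisons, as edgeR estimates (dots) with 95% intervals (bars). In NPP_herb against NPP_solvent all 9 intervals include 0, while Scn3a, Scn9a and Scn11a lie above 0 in Sham_herb against Sham_solvent and Scn10a lies below 0 in Ctrl_solvent against Ctrl.

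Ctrl_solvent against Ctrl asks how solvent differs from the Ctrl treatment in rats of the Ctrl state. Scn10a had 228, 303 and 261 CPM in Ctrl_solvent and 308, 353 and 469 CPM in Ctrl. All 3 Ctrl_solvent libraries were below all 3 Ctrl libraries, as held for 8.15% of all genes, and the nearest libraries lay close together. The log2 fold change was -0.51 ± 0.19 (95% interval -0.92 to -0.11, unadjusted p = 0.0159, adjusted p = 0.258, edgeR), and Scn10a was the only one of the 9 with an unadjusted p under 0.05, against 13.0% of all genes. Ctrl replicate 3 was the highest, and without it the fold change was -0.33 and no member was at that threshold, as was also so without Ctrl_solvent replicate 1. Ctrl replicate 1, the Ctrl library with Eif2s3y reads, was at 308 CPM, above the highest Ctrl_solvent library. Scn8a had 129, 147 and 108 CPM against 141, 139 and 173 CPM, an overlapping pair of groups with a log2 fold change of -0.24 ± 0.17.

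Against Ctrl_solvent, neither Sham_solvent nor NPP_solvent had a member with an unadjusted p under 0.05. The share of all genes was 6.12% for Sham_solvent and 5.50% for NPP_solvent. All 9 members had positive fold changes for NPP_solvent, with a median of 0.15, against 48.7% positive over all genes. With the gene length slope as a covariate 5 of the 9 were positive. For Sham_solvent 3 of the 9 were positive, and 5 with RLE scaling. The Scn10a fold change was 0.32 ± 0.19 for NPP_solvent, and that of Scn3a was -0.26 ± 0.27 for Sham_solvent. These comparisons share the Ctrl_solvent libraries, so they are not independent. Across all 6 groups in 1 test, 1 of the 9 had an unadjusted p under 0.05 (10.2% of all genes), which was Scn3a (unadjusted p = 0.0257, adjusted p = 0.441, edgeR). It had 2.98, 2.18 and 3.66 CPM in the Ctrl libraries and 2.44, 3.63 and 4.51 CPM in those of Ctrl_solvent, which overlapped. Its group means ran from 2.94 CPM in Ctrl and 2.95 CPM in Sham_solvent to 5.27 CPM in NPP_herb. Scn10a followed with an unadjusted p of 0.0551, its means running from 245 CPM in Sham_solvent to 377 CPM in Ctrl.

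The members' mean level went with how much each library read long genes. For each library a slope was computed of every gene's deviation from its mean log2 CPM on the log10 of its length, so that a library with a positive slope reads long genes more than average. The lengths implied by counts and FPKM were 5111 bases for Scn2b to 15322 bases for Scn3a, a rough value at so low a level, against a median of 3502 over 13132 genes. The mean deviation of the 9 genes in a library went with its slope at Pearson's r = 0.928 and Spearman's rho = 0.934 over the 18 libraries, and at r = 0.916 without the 2 libraries farthest from the median slope. For single members r ran from 0.187 for Scn2b to 0.771 for Scn9a, with a median of 0.663. The median was 0.508 over all genes at least as long as Scn2b and -0.02 over all genes. All 9 members are longer than the median gene, so a positive r with the slope is partly built in. Averaging the 9 also tends to raise r, and the 0.508 is a median of single genes, not of such averages.

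The slope was 0.200 to 0.285 in the 3 Sham_herb libraries, and -0.549, 0.258 and -0.269 in Sham_solvent replicates 1, 2 and 3. It was 0.0310, -0.141 and 0.409 in NPP_solvent and 0.115, -0.163 and 0.345 in NPP_herb, where replicate 3 was again the highest. With the slope as a covariate, the Sham_herb against Sham_solvent log2 fold changes were 0.10 for Scn9a, 0.03 for Scn10a, 0.15 for Scn7a, 0.18 for Scn11a and 0.32 for Scn3a, and that of Scn10a between NPP_solvent and Sham_solvent was 0.21. In the latter comparison other members moved away from 0 with the covariate, Scn1a to -0.242 (unadjusted p = 0.0272, edgeR), the only member at that threshold there, and Scn8a to -0.201. Scn10a in Ctrl_solvent against Ctrl was at -0.52 with it, but the mean slopes of those groups, -0.113 and -0.130, were so alike that the covariate could hardly move this value. Between the Sham groups the mean slopes did differ, at 0.231 in Sham_herb and -0.187 in Sham_solvent, and the slope comes from the same counts. Such a covariate can also take up a group difference in long genes, so the smaller values cannot tell the 2 apart. What sets the slope was not tested. The pan-neuronal marker score moved less with the mean of the members, at r = 0.355 and rho = 0.296, and ran from -0.109 to 0.0988 over the libraries. Single members differed, with r from -0.283 for Scn7a to 0.555 for Scn4b. For Scn11a it was 0.498, against 0.466 with the slope.

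**Figure D4:**
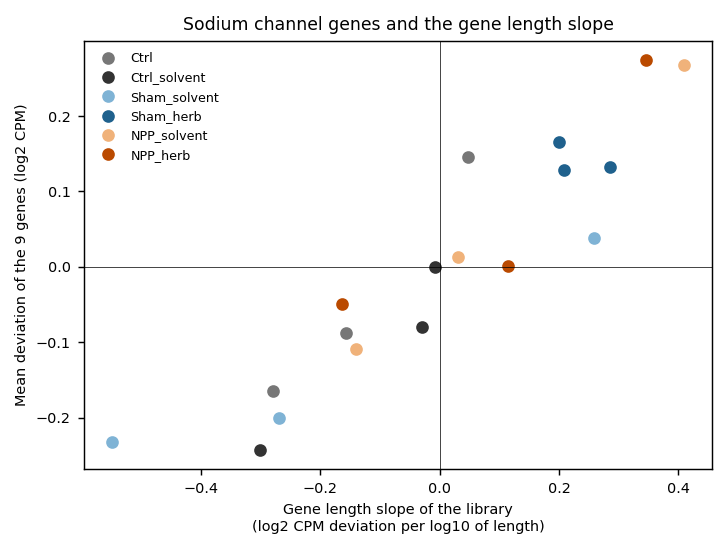
Mean deviation of the 9 genes (log2 CPM, y axis) against the gene length slope of each library (log2 CPM deviation per log10 of length, x axis), with 1 dot per library coloured by group. The dots rise along a line (r = 0.928), with the 3 Sham_herb libraries close together at slopes of 0.200 to 0.285 and Sham_solvent spread from -0.549 to 0.258.

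Some pairs of the family varied alike over the 18 libraries. Scn10a and Scn11a, neighbours on chromosome 8 that serve the same small neurons, had r = 0.842 (0.864 after removing group means). Scn3a and Scn9a, on chromosome 3, had r = 0.843 (0.764). Among the genes of large myelinated neurons r was 0.745 for Scn8a and Scn4b, 0.717 for Scn1a and Scn4b, and 0.682 for Scn1a and Scn8a (0.888 after removing group means). Scn8a varied about as much alike with the nociceptor genes, at r = 0.724 with Scn10a (0.787) and 0.617 with Scn11a (0.648). Scn7a varied alike with Scn3a (r = 0.651) and not with Scn8a (r = -0.06), and Scn2b had no r above 0.362 with any member. Over the 36 pairs the median r was 0.347. All pairs share libraries, depth and the length slope, and these values are descriptions.

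**Figure D5:**
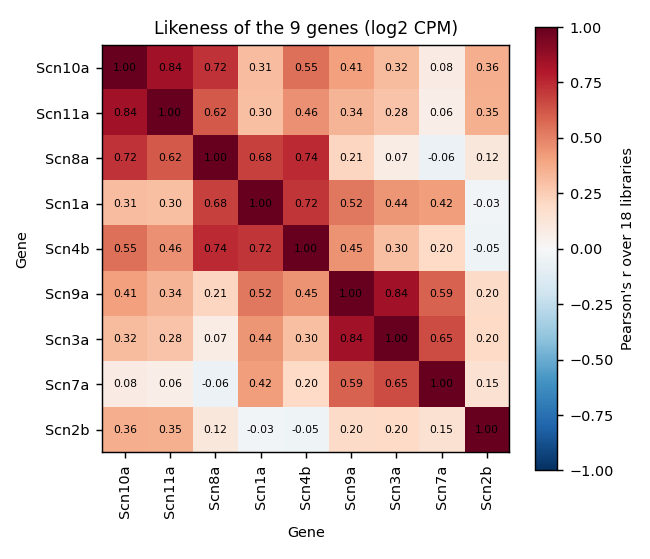
Pearson's r of log2 CPM over the 18 libraries for each pair of the 9 genes (both axes list the genes, and colour and numbers give r). Scn10a with Scn11a and Scn3a with Scn9a are the darkest cells off the diagonal, at 0.84 each, and the Scn2b row is pale.

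Among 10990 other genes with a mean of at least 5 CPM, those most like Scn10a over the 18 libraries were Syt9, a synaptotagmin (r = 0.923), Dpysl5 (0.910) and Otof, which encodes otoferlin (0.901). For Scn8a they were Atp11a (0.932), Pcnx2 (0.925) and Ube2o (0.922). For Scn7a they were Zmynd11 (0.923), Slc44a1, a choline transporter (0.923), and Lgr4 (0.911). For Scn4b the first were Cntnap1, the paranodal protein of myelinated axons (0.895), and Naa60 (0.889).

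The other sodium channel genes and the proteins that handle the channels were followed as lists. Of the 5 other family genes, Scn3b, a beta subunit that joins alpha subunits of sensory neurons, had 90.4, 76.0 and 111 CPM in NPP_solvent and 56.7, 68.7 and 58.3 CPM in Sham_solvent, without overlap. Its log2 fold change was 0.59 ± 0.18 (unadjusted p = 0.00502, adjusted p = 0.755, edgeR), larger than that of any of the 9 members in that comparison. It was 0.42 ± 0.18 for Sham_herb against Sham_solvent, where the 3 Sham_herb libraries had 78.0, 85.6 and 82.5 CPM, and the interaction was -0.63 ± 0.26. The other 4 family genes had no unadjusted p under 0.05 in these 3 comparisons. Elsewhere, 2 of the 5 were lower at that threshold in Ctrl_solvent than in Ctrl (13.0% of all genes in either direction). A further comparison, NPP_solvent against Ctrl_solvent, had 2 of the 5 higher (5.50%).

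Of 21 channel partners (anchors, clustering proteins, intracellular FGF factors and ubiquitin ligases), 0 had an adjusted p under 0.05 in edgeR in any comparison. At an unadjusted p under 0.05, 1 was lower in NPP_solvent than in Sham_solvent, which was Fgf12, a factor that binds the channels' tail, at 300.4 against 351 CPM (log2 fold change -0.23 ± 0.09), where 5.67% of all genes were at that threshold. In Sham_herb against Sham_solvent 4 of 21 were higher at that threshold, against 9.89% of all genes in either direction. They included Nedd4l, a ubiquitin ligase that removes channels from the membrane (219 against 182 CPM), and Cntnap2, which clusters potassium channels beside the node (191 against 156 CPM). Between NPP_herb and NPP_solvent there were 0 of 21. Of the 6 sodium pump genes, which restore the sodium gradient, none had an unadjusted p under 0.05 in the comparisons within and between the Sham and NPP groups. In Ctrl_solvent against Ctrl, 1 of the 6 was lower at that threshold, against 13.0% of all genes in either direction.

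Markers of nociceptors, the neurons that hold Scn10a, were read beside it. At an unadjusted p under 0.05, 2 of the 7 were higher in NPP_solvent than in Sham_solvent (5.67% of all genes in either direction), 2 were higher in Sham_herb than in Sham_solvent (9.89%) and 1 was lower in Ctrl_solvent than in Ctrl (13.0%). The summed level of the 7 markers was 4290 to 4880 CPM in NPP_solvent, 3350 to 4970 CPM in Sham_solvent, 3340 to 3920 CPM in Sham_herb, 4170 to 5370 CPM in Ctrl and 3600 to 4250 CPM in Ctrl_solvent, and all 7 were read in every library. These sums are led by a few abundant genes. The nociceptor score, the mean log2 deviation of the 7, gives each gene equal weight. It was -0.319, -0.169 and -0.338 in Sham_solvent, below all 3 libraries of NPP_solvent (0.106, 0.0739 and 0.230) and of Sham_herb (0.0425, -0.0305 and 0.0547). The score thus moved with Scn10a in both comparisons, while the summed levels of the groups overlapped. Between the Sham groups the sums did not rise with Scn10a, since they reached 3920 CPM in Sham_herb and 4970 CPM in Sham_solvent. Equal weight also gives Mrgprd, at only 0.810 to 8.53 CPM, as much say as the abundant genes. The 3 markers named next were chosen after their values were seen and do not stand for all 7. Trpv1, the capsaicin receptor, was at 92.3 CPM in NPP_solvent against 64.8 CPM in Sham_solvent (log2 fold change 0.51 ± 0.16, adjusted p = 0.755, edgeR). P2rx3, an ATP receptor, was at 449.8 CPM in Sham_herb against 360.5 CPM in Sham_solvent (0.32 ± 0.13, adjusted p = 0.491, edgeR). Calca, the gene of CGRP, was at 883 CPM in Ctrl_solvent against 1219 CPM in Ctrl (-0.46 ± 0.18, adjusted p = 0.269, edgeR). The part of nociceptor content in the Scn10a values was not tested.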

How the data were processed

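Bulk messenger RNA of rat dorsal root ganglion was sequenced in paired-end mode from a KAPA stranded kit, per the labels' protocols. The submitters' processing notes name HISAT2, DESeq2 and build mRatBN7.2. Counter, strandedness of counting and annotation were not given in the sources used here. Reads shared by overlapping or antisense genes therefore cannot be told apart. The deposited count table holds raw counts per gene, and the authors' FPKM table scales reads to gene length and library size for 25557 genes.

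Genes were filtered with filterByExpr, scaled with TMM and tested by quasi-likelihood (edgeR 4.0.16, R 4.3.3), with all 18 libraries in 1 model (12 residual degrees of freedom) and Benjamini-Hochberg adjustment over the 17043 genes tested at a threshold of 0.05. The procedure was tested on simulated data. CPM are TMM-scaled and ± is the SE of a fold change or the SD of a share. Alternatives were DESeq2 1.42.0, RLE factors, no filter, only the groups compared, a replicate block, the length slope or the pan-neuronal score as covariate, limma 3.58.1 on log2(FPKM + 0.1) or log2(FPKM + 1), and leaving out libraries. All 9 members were named, along with other family genes, up to 2 partner or pump genes per direction with the smallest unadjusted p under 0.05, and the 3 genes most like each of 4 members by Pearson's r. The marker genes Atf3, Eif2s3y, Tubb3, Trpv1, P2rx3 and Calca were named after their values were seen. A few items that the rule would name are not reported here. The members and lists were chosen with earlier results of these data known. Smallest chi-square per degree of freedom between replicates of a group was 12.4, more than sequencing the same library again would give. This value cannot tell separate preparations of the same RNA or animal from separate animals. Libraries of different groups were not compared in this way.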

Additional observations from a re-analysis of the deposited data

How the results depend on the processing

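The number of members with an adjusted p under 0.05 was 0 in each of the 216 counts recomputed over 29 alternative fits, although other genes passed in some. DESeq2 called 468 genes for Ctrl_solvent against Ctrl and 483 across the 6 groups, and leaving out Ctrl_solvent replicate 2 brought 734 for the former, so the choice of tool and of that library decides calls elsewhere in the table. Of all 90 fold changes of members, 48 had another sign under at least 1 alternative, so counts of positive and negative signs are not stable. Of the 30 chosen to be printed, 3 did, all in NPP_solvent against Sham_solvent. Scn8a was at 0.0115 from FPKM with a pseudocount of 0.1, 0.00934 with a pseudocount of 1, and -0.131 to 0.152 on leaving out single libraries. Scn1a was at -0.196 to 0.108 on leaving out single libraries. Scn4b was at -0.111 with the length slope as a covariate, -0.00583 with the pan-neuronal score, -0.00456 without replicate 3 of both NPP groups, -0.0192 without the 4 replicate 3 libraries, and -0.125 to 0.160 on leaving out single libraries. The causes were not tested. The replicate numbers did not pair the libraries: correlations of same-numbered deviations ran from -0.282 to 0.231 over 45 pairs, and every library correlated best with its own number in 1 of 15 pairs of groups. With a replicate block 0 members passed, and the Scn10a fold change between NPP_solvent and Sham_solvent was 0.409. Shares of the alpha pool moved by less than 1 SD when the family's other alpha subunit genes were added, when counts divided by the implied gene length replaced FPKM, or without any 1 library. With 3 libraries a group, fold changes of the size seen here, mostly under 0.5 on the log2 scale, were within reach of the spread between libraries, and Scn3a rests on 45 to 205 reads.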
